A study of Mus musculus with 24 samples.

Results

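The muscle-type miRNAs miR-1a-3p, miR-133a-3p, miR-133b-3p and miR-206-3p were examined in the neonatal mouse brain by miRNA-Seq. They were chosen by name as the guide strands of the miR-1, miR-133 and miR-206 families (mmu-miR-1a-3p, mmu-miR-133a-3p, mmu-miR-133b-3p and mmu-miR-206-3p in the tables), and were 4 of the 1531 mouse entries in the count tables. The libraries came from CD1 pups of both sexes at postnatal day 9. The 4 pups with hypoxic-ischemic brain injury (HIBI, pups 1, 4, 5 and 7) had the right common carotid artery cauterized under isoflurane and, after 2 h with the dam, spent 30 min at 8% oxygen at normothermia. The 4 sham control pups (pups 2, 3, 6 and 8) had the same anesthesia, analgesia and neck dissection without ligation, and were kept in warm normal air while the others were hypoxic. Tissue was taken 30 min later from the right cerebellum, striatum/thalamus and cortex of each pup, which gave 24 libraries from 200 ng of RNA each. In this model all regions are exposed to hypoxia and the cerebellum is largely spared from ischemia.

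These 4 miRNAs are known as myomiRs, because skeletal muscle (all 4) or heart (miR-1 and miR-133) holds far more of them than other tissues. MiR-1 and miR-206 favor differentiation of myoblasts, and miR-133 favors their proliferation. A miRNA finds its target messenger RNAs mainly through the seed, bases 2 to 8, and miR-1 and miR-206 share a seed, as do miR-133a and miR-133b, so that each pair can repress many of the same transcripts. In the brain, miR-133b has been studied in midbrain dopamine neurons and miR-1 and miR-206 in neurons.

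The sequences below show the seeds of both families and the arm from which the counted strand is cut. RefSeq sequences on GRCm38.p6 were matched for 2 of the 4 miRNAs, miR-206-3p and miR-133b-3p, and their seeds are in capitals.
miR-206-3p: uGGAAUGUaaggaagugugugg
miR-133b-3p: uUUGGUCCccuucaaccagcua
Both lie on the plus strand of chromosome 1, miR-206-3p at chr1:20679055-20679076 and miR-133b-3p at chr1:20682834-20682855. The seeds were searched in 1679 mature mouse miRNAs of RefSeq. The entries of a chromosome were left out before the search, and the set searched held neither miR-1a-3p nor miR-133a-3p. Within it, the seed of miR-206-3p was also found in miR-6349 and miR-6382, and that of miR-133b-3p in no other entry. In the hairpins, the counted 3p arm is in capitals.
Mir206: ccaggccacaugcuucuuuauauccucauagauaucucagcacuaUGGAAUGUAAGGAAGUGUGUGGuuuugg
Mir133b: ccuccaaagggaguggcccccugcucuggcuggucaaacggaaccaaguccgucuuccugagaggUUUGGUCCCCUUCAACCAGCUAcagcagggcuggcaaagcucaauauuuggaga

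The hairpins Mir206 (chr1:20679010-20679082) and Mir133b (chr1:20682769-20682887) are 3686 bases apart, and both lie inside the lincRNA gene Gm28653 (chr1:20669882-20684298, plus strand). MiR-1a and miR-133a are likewise encoded side by side. Mir1a-1 (chr2:180389048-180389124) and Mir133a-2 (chr2:180398379-180398482) are 9254 bases apart on the plus strand of chromosome 2, with no other annotated gene over either hairpin. A further copy of each of these hairpins gives the same mature strand and was not analysed here. MiR-133a-3p and miR-133b-3p are near-identical, so the split of reads between them is uncertain.

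The libraries held 1254185 to 3406624 counts on mouse miRNAs. Counts were scaled to counts per 1000000 (CPM) with edgeR's TMM factors over the 24 libraries, and values below are mean ± SD over 4 pups unless stated. Together the 4 miRNAs made up 0.0432% to 0.0686% of the cerebellar counts, 0.00393% to 0.0137% of those from striatum/thalamus and 0.00272% to 0.0062% of those from cortex. Of their summed counts in sham pups, miR-206-3p gave 80.0% in cerebellum, 37.0% in striatum/thalamus and 18.5% in cortex, and miR-1a-3p gave 17.5%, 59.1% and 78.3%. The neuronal miRNAs miR-124-3p, miR-9-5p and miR-128-3p, which served as a check of the tissue, summed to at least 79171 CPM in every library. In bulk tissue, fewer cells of a type and less of a miRNA per cell cannot be told apart.

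MiR-206-3p was mainly a cerebellar miRNA in these pups. In the cerebellum, sham pups 2, 3, 6 and 8 had 521, 367, 395 and 360 CPM (411 ± 74.7), and HIBI pups 1, 4, 5 and 7 had 255, 343, 273 and 273 CPM (286 ± 39.0). In the striatum/thalamus the same sham pups had 18.4, 48.2, 42.6 and 33.3 CPM (35.7 ± 13.0), and the HIBI pups 23.5, 25.8, 29.2 and 16.5 CPM (23.8 ± 5.37). In the cortex the sham pups had 6.77, 12.2, 6.67 and 6.72 CPM (8.09 ± 2.73), and the HIBI pups 3.34, 6.43, 8.77 and 15.5 CPM (8.50 ± 5.16). In both groups of pups the levels of the 3 regions did not overlap, in the order cerebellum, striatum/thalamus, cortex. By edgeR's quasi-likelihood test, with Benjamini-Hochberg adjustment over 437 miRNAs, miR-206-3p in sham pups was lower in the striatum/thalamus than in the cerebellum by a log2 fold change of -3.52 (SE 0.337, adjusted p = 1.11e-08). It was lower in the cortex than in the cerebellum by -5.65 (SE 0.378, adjusted p = 4.03e-11), a 50.1-fold difference, and lower in the cortex than in the striatum/thalamus by -2.13 (SE 0.341, adjusted p = 0.000128). In HIBI pups the 3 log2 fold changes were -3.59, -5.03 and -1.44, each with an adjusted p under 0.05. Within each sham library of the cerebellum, miR-206-3p ranked between 117 and 153 of the 1531 entries.

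MiR-1a-3p differed less between regions. In the cerebellum, sham pups 2, 3, 6 and 8 had 43.0, 60.6, 127 and 127 CPM (89.4 ± 44.0), and HIBI pups 1, 4, 5 and 7 had 76.8, 112, 375 and 174 CPM (184 ± 133). Pup 5 was the highest, with 964 counts and an exact Poisson 95% interval of 352 to 400 CPM, which covers counting error only. In the striatum/thalamus the sham pups had 33.9, 70.1, 92.5 and 32.4 CPM (57.2 ± 29.3), and the HIBI pups 35.6, 44.1, 48.7 and 19.9 CPM (37.1 ± 12.7). In the cortex the sham pups had 43.4, 15.1, 33.4 and 55.9 CPM (36.9 ± 17.2), and the HIBI pups 38.4, 23.7, 46.9 and 45.3 CPM (38.6 ± 10.6). Sham levels overlapped between all 3 regions, whereas in HIBI pups all cerebellar levels were above all levels of the other regions. In sham pups only the cortex was called lower than the cerebellum, by a log2 fold change of -1.28 (SE 0.478, adjusted p = 0.0263). Without pup 3 or pup 6 that call was lost (-1.12 and -1.07). The sham striatum/thalamus differed from the cerebellum by -0.64 (SE 0.471, adjusted p = 0.233) and from the cortex by as little. In HIBI pups miR-1a-3p was lower than in the cerebellum by -2.32 (SE 0.493, adjusted p = 0.000328) in the striatum/thalamus and by -2.25 (SE 0.489, adjusted p = 0.0008) in the cortex. The cortex and striatum/thalamus of these pups differed by 0.06 (SE 0.481, adjusted p = 0.936).

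MiR-133a-3p rested on few counts, above all outside the cerebellum. Cerebellar counts were 23, 13, 32 and 17 in sham pups 2, 3, 6 and 8 (9.46 ± 3.85 CPM), and 23, 31, 14 and 19 in HIBI pups 1, 4, 5 and 7 (10.7 ± 4.49 CPM). In the striatum/thalamus the counts were 2, 9, 13 and 3 in sham pups (3.17 ± 2.34 CPM) and 11, 10, 16 and 7 in HIBI pups (6.34 ± 2.31 CPM). In the cortex they were 2, 4, 7 and 3 in sham pups (1.39 ± 0.517 CPM) and 1, 0, 11 and 10 in HIBI pups (2.01 ± 2.01 CPM). The cortex was below the cerebellum without overlap in both groups, with log2 fold changes of -2.68 (SE 0.640, adjusted p = 0.00125) in sham and -2.25 (SE 0.618, adjusted p = 0.00548) in HIBI pups by edgeR's quasi-likelihood test. The striatum/thalamus was called lower than the cerebellum in sham pups (-1.53, SE 0.601, adjusted p = 0.03) and not in HIBI pups (-0.76, SE 0.574, adjusted p = 0.277), and that difference between groups was not tested. The sham call was lost without pup 2 (-1.30), pup 3 (-1.74) or pup 8 (-1.49), and with no CPM minimum (-1.58).

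MiR-133b-3p was detected in every cerebellar library and in none of the cortex. Its counts in the cerebellum were 9, 5, 5 and 9 in sham pups 2, 3, 6 and 8 (3.05 ± 0.681 CPM) and 7, 6, 4 and 12 in HIBI pups 1, 4, 5 and 7 (3.54 ± 1.73 CPM). In the striatum/thalamus they were 0, 4, 1 and 0 in sham pups and 3, 0, 0 and 0 in HIBI pups. In cortex, 0 counts over the 4 sham libraries allow up to 0.264 CPM, and 0 over the 4 HIBI libraries allow up to 0.311 CPM, taking 3 counts over a group as the limit. These limits and the folds on pooled counts use total library counts without TMM factors. On pooled counts the cerebellum was 11.2-fold above this limit for the cortex in sham pups and 11.6-fold above it in HIBI pups. These folds leave out the counting error of the cerebellar counts. From pooled counts the cerebellum was 4.79-fold above the striatum/thalamus in sham pups (exact 95% interval 1.83 to 15.9, counting error only) and 8.85-fold in HIBI pups (2.74 to 45.4). EdgeR's quasi-likelihood test called both, at -2.26 (SE 0.948, adjusted p = 0.0454) and -2.87 (SE 1.04, adjusted p = 0.0259). The same pup gave all 3 regions, and with pup as a replicate block the sham call was lost (adjusted p = 0.0634, range over the alternatives 0.0249 to 0.162). It was also lost without pup 2, 4, 6 or 8 (-1.85, -2.28, -2.33 and -1.87), and the HIBI call without pup 4, 5 or 7 (-2.67, -2.70 and -2.06).

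**Figure D1:**
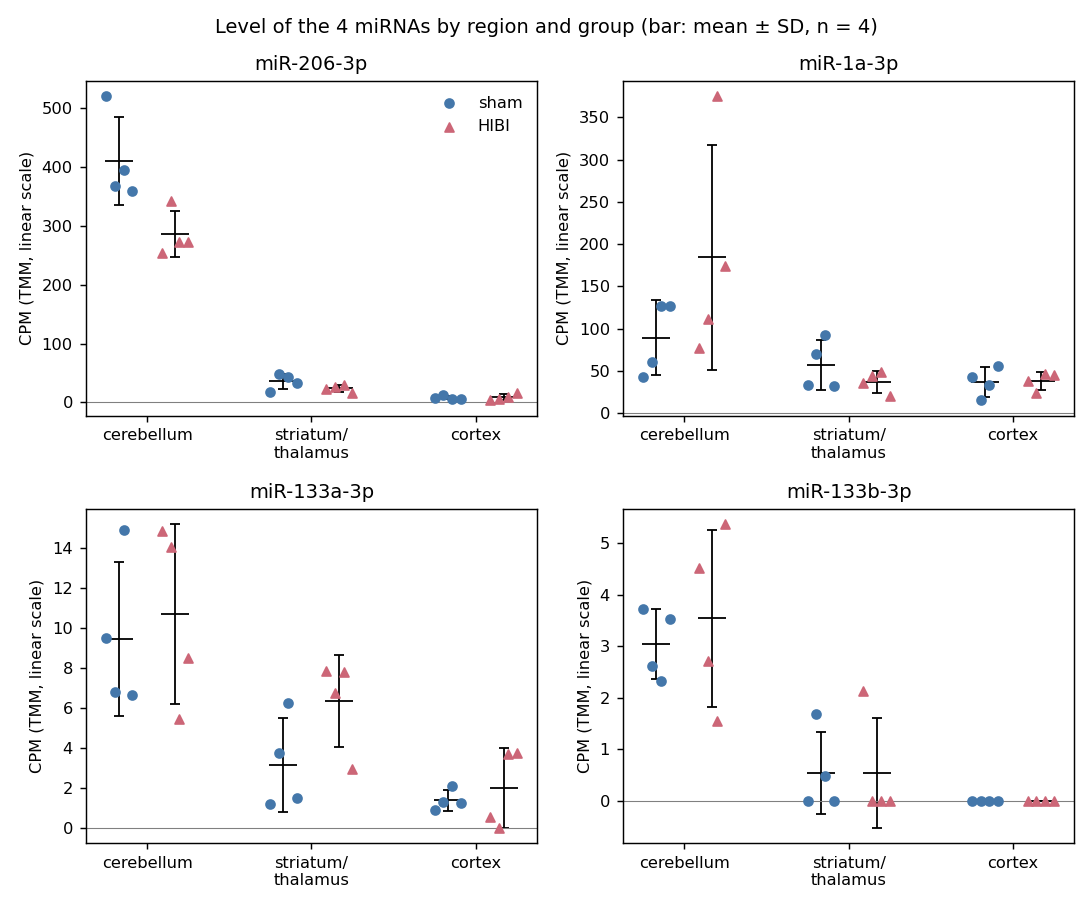
TMM-scaled CPM of each of the 4 miRNAs (linear vertical axes, each panel with its own range) by region (cerebellum, striatum/thalamus, cortex) for sham (circles) and HIBI (triangles) pups, with mean ± SD (n = 4). The cerebellar libraries of miR-206-3p sit between 255 and 521 CPM, above every library of the other regions, and miR-133b-3p is at 0 in all 8 cortex libraries.

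Among all miRNAs, differences between regions were common, and the counts over the members are read against that background. In sham pups, 3 of the 4 miRNAs were called lower in the striatum/thalamus than in the cerebellum (62.9% of the 437 miRNAs tested were called in either direction) and 3 of 4 did not overlap (55.6% of all). Between cortex and cerebellum of sham pups, the 3 miRNAs with a usable fit were all called lower (56.8% of all called), and 3 of the 4 did not overlap (54.2% of all). Between cortex and striatum/thalamus of sham pups, miR-206-3p was the single member called (33.0% of all) and the single member without overlap (38.4% of all). In HIBI pups, 3 of 4 were called lower in the striatum/thalamus than in the cerebellum (55.1% of all), and 2 of 4 did not overlap (40.0% of all). All 3 with a usable fit were called lower in the cortex than in the cerebellum of HIBI pups (36.4% of all), and all 4 did not overlap (34.3% of all). The shares of all miRNAs called count both directions. Of the 437, 133 in striatum/thalamus and 118 in cortex were called lower than in the cerebellum of sham pups. In HIBI pups these numbers were 119 and 87. Between cortex and striatum/thalamus of HIBI pups, miR-206-3p was again the single member called (37.5% of all) and the single member without overlap (29.5% of all). The mean in the sham cortex was 1.97% of that in the cerebellum for miR-206-3p, 14.7% for miR-133a-3p and 41.3% for miR-1a-3p. MiR-133b-3p had no count in the sham cortex (11.2-fold lower when 3 counts are taken as the limit).

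**Figure D2:**
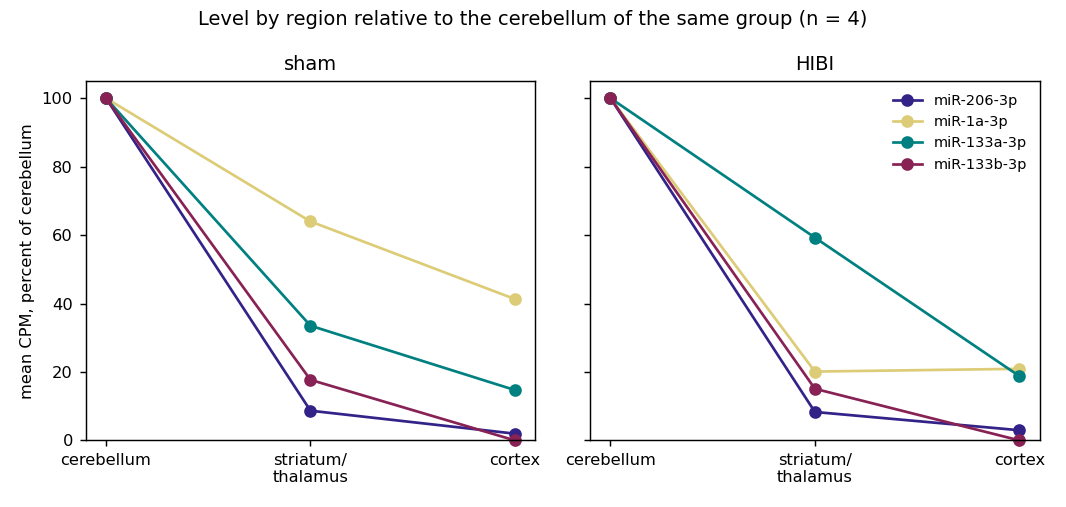
Mean CPM of each miRNA in each region as a percent of the mean in the cerebellum of the same group (4 pups a point, linear axis, sham left and HIBI right). In sham pups the striatum/thalamus stood at 64.0% for miR-1a-3p and 8.68% for miR-206-3p, and in HIBI pups miR-1a-3p stood at 20.1% and miR-133a-3p at 59.3%.

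The effect of HIBI was compared in each region among the 8 libraries of that region, where a call needed an unadjusted p under 0.05 and a fold change above 1.5. In the cerebellum miR-206-3p was lower in HIBI than in sham pups without overlap, since the highest HIBI library (343 CPM, pup 4) lay under the lowest sham library (360 CPM, pup 8). It was the single member of the 4 without overlap there (3.68% of all miRNAs tested did not overlap). The log2 fold change was -0.53 (SE 0.207, adjusted p = 0.433 by edgeR's quasi-likelihood test). Its 1.44-fold size kept it below the criterion on fold change although its unadjusted p passed. The two-sided exact permutation test gave p = 0.0286, the smallest that 4 against 4 pups can give, and 0.429 after adjustment over the 15 tests of this kind. It met both criteria with upper-quartile scaling (-0.67) and without pup 3, 4, 6 or 8 (-0.59, -0.60, -0.60 and -0.67), and with library size alone as the scale the exact permutation p was 0.0857. The median of all 435 miRNAs tested was itself shifted by 0.12 on the log2 scale with TMM, by 0.27 with library size alone and by -0.02 with the upper quartile. Relative to that median, miR-206-3p stood at -0.64, -0.64 and -0.66 in these fits. The library highest in miR-206-3p, sham pup 2, was also the highest of the cerebellum in the choroid plexus list, whose 5 members (all in the tables) summed to 2567 to 9703 CPM in sham and 2774 to 4069 CPM in HIBI pups. The other libraries did not keep the same order. Sham pup 6, with 395 CPM of miR-206-3p, had the lowest sum (2567 CPM), and sham pup 8, with 360 CPM, had a sum of 4619 CPM. Without pup 2 the log2 fold change of miR-206-3p was -0.42. The muscle and erythroid pair miR-486a-5p and miR-486b-5p summed to 1015 to 2103 CPM in sham and 671 to 1138 CPM in HIBI pups. The part of cell content in the difference was not tested.

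MiR-1a-3p was the single member called in the cerebellum (8.28% of all miRNAs tested were called, 18 higher and 18 lower), with a log2 fold change of 1.06 (SE 0.484, adjusted p = 0.433). The groups overlapped, with 2 of the 4 HIBI libraries above all sham libraries, and the exact permutation test gave p = 0.2. The value rested largely on pup 5, without which the log2 fold change was 0.44 (SE 0.414, adjusted p = 0.799, range over the alternatives 0.0854 to 0.829). The call was also lost without pup 2 (0.80), pup 3 (0.90) or pup 7 (1.09), and with upper-quartile scaling (0.94). The split of all calls in the cerebellum moved from 18 higher and 18 lower to 41 and 10 with library size alone and to 7 and 39 with the upper quartile.

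Other measures moved with miR-1a-3p across the cerebellar libraries. The endothelial miRNA miR-126a-3p had 2007, 2188, 3401 and 4027 CPM in sham pups 2, 3, 6 and 8, and 2487, 3102, 4826 and 4317 CPM in HIBI pups 1, 4, 5 and 7, with the highest value in pup 5 as for miR-1a-3p. The smooth muscle miRNA miR-143-3p was also highest in pup 5, at 5121 CPM against 1774 to 3368 CPM in the other 7 libraries, whereas the other smooth muscle miRNA, miR-145a-5p, was lowest in pup 5, at 490 CPM. Both markers of the endothelial list, miR-126a-3p and miR-126a-5p, and both of the smooth muscle list, miR-143-3p and miR-145a-5p, were in the tables, and their sums ranged from 2012 to 4038 CPM in sham and 2490 to 4847 CPM in HIBI pups, and from 2329 to 3861 CPM and 3016 to 5612 CPM. The summed meningeal and fibroblast miRNAs were highest in pup 5, at 452 CPM against 153 to 318 CPM in the other 7 libraries. Of that list, miR-199a-3p was highest in pup 5, at 316 CPM. MiR-214-3p was instead highest in a sham library, at 45.5 CPM, against at most 38.1 CPM in HIBI pups. The neuronal miRNA miR-9-5p was highest in pup 5 too, at 127375 CPM against 45264 to 105400 CPM. Neuronal miR-124-3p was instead lowest in pup 5, at 26234 CPM. The summed neuronal miRNAs were highest in sham pup 8, at 190760 CPM against 182288 CPM in pup 5. GC content moved with miR-1a-3p as well. Over the 369 miRNAs with a sequence, the Spearman correlation of GC content with a library's deviation from the regional mean was 0.27, 0.40, -0.14 and -0.20 in sham pups 2, 3, 6 and 8, and 0.41, 0.11, -0.55 and -0.60 in HIBI pups 1, 4, 5 and 7. The deviations of miR-1a-3p in the same order were -1.35, -0.87, 0.19 and 0.19, and -0.53, 0.00367, 1.74 and 0.64 on the log2 scale, so that the 3 libraries with the lowest miR-1a-3p were the 3 with the most positive GC correlation. The part of cell content or GC content in the result was not tested.

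In the striatum/thalamus no member was called (2.74% of all miRNAs were) and no member was free of overlap (2.05% of all). MiR-206-3p had a log2 fold change of -0.68 (SE 0.363, adjusted p = 0.978) and miR-1a-3p of -0.72 (SE 0.414, adjusted p = 0.978) by edgeR's quasi-likelihood test, and for both the lowest of the 8 libraries was HIBI pup 7 (16.5 and 19.9 CPM). Without pup 2, miR-206-3p met both criteria (-0.89). MiR-133a-3p had a log2 fold change of 0.86 (SE 0.647, adjusted p = 0.978), with 3 of the 4 HIBI libraries above all sham libraries. MiR-133b-3p, with 5 counts in sham and 3 in HIBI pups, was too low to compare. In the cortex no member was called (3.40% of all were) and the groups of all 4 overlapped (3.40% of all did not). MiR-206-3p (0.10, SE 0.439) and miR-1a-3p (0.05, SE 0.379) had adjusted p-values of 0.989, and miR-133a-3p, at 0.60 (SE 0.776, adjusted p = 0.96), ranged from 0 to 11 counts in HIBI pups. In the cerebellum miR-133a-3p and miR-133b-3p differed between groups by 0.16 (SE 0.442) and 0.19 (SE 0.529), with adjusted p-values of 0.858 and 0.86.

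**Figure D3:**
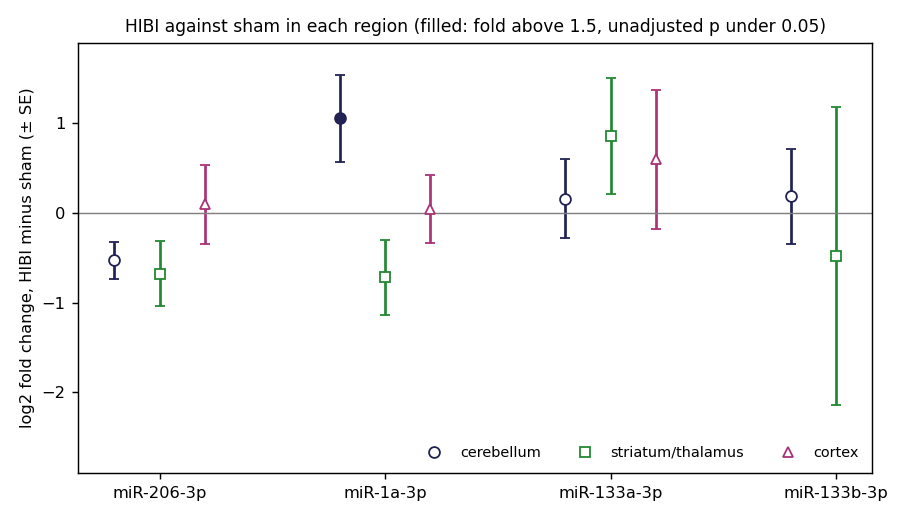
Log2 fold change of HIBI against sham (vertical axis, ± SE from edgeR's quasi-likelihood fit, 4 pups a group) for each miRNA in the cerebellum (circles), striatum/thalamus (squares) and cortex (triangles). A filled symbol marks a call, which was made for miR-1a-3p in the cerebellum alone (1.06), and miR-133b-3p has no cortex value because all its counts there were 0.

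Whether the injury effect differed between the forebrain regions and the cerebellum was tested as an interaction over the 24 libraries. By edgeR's quasi-likelihood test no miRNA passed an adjusted p of 0.05 (0.00% of 437), while 71 had an unadjusted p under 0.05. With no CPM minimum 10 passed, and DESeq2 and limma called 0. For miR-1a-3p the effect averaged over striatum/thalamus and cortex was lower than in the cerebellum by a log2 of -1.33 (SE 0.577, adjusted p = 0.257, range over the alternatives 0.0586 to 0.665), with an unadjusted p under 0.05. The difference was 0.27 (SE 0.386, adjusted p = 0.736) for miR-206-3p and 0.60 (SE 0.715, adjusted p = 0.654) for miR-133a-3p.

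Although encoded side by side, the miRNAs of each pair were counted at very different levels. In the cerebellum miR-206-3p had 3730 counts and miR-133b-3p 28 over the sham libraries, and 2464 and 29 over the HIBI libraries. The ratio of the counts ranged from 50.8 to 175 over the 8 cerebellar libraries, with a median of 133. For miR-1a-3p and miR-133a-3p the ratio in the cerebellum ranged from 4.52 to 68.9 over the 8 libraries, and the highest was in pup 5, where miR-1a-3p was the highest (964 counts) and miR-133a-3p among the lowest (14 counts) of the region. In the striatum/thalamus the ratio was 14.8 to 28.5 in sham and 4.55 to 6.71 in HIBI pups, which did not overlap but rest on 2 to 16 counts of miR-133a-3p a library. The groups overlapped in the cerebellum (4.52 to 19.1 in sham, 5.17 to 68.9 in HIBI pups). They also overlapped in the cortex (11.8 to 48 in sham, 12 to 69 in the 3 HIBI libraries with a ratio). How often ratios of other miRNAs separate the groups was not computed. The pooled ratio of miR-133b-3p to miR-133a-3p was 0.331 in the cerebellum and 0.113 in the striatum/thalamus. Ratios between miRNAs were described and not tested, since counts of different miRNAs also depend on how each is captured in the library.

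**Figure D4:**
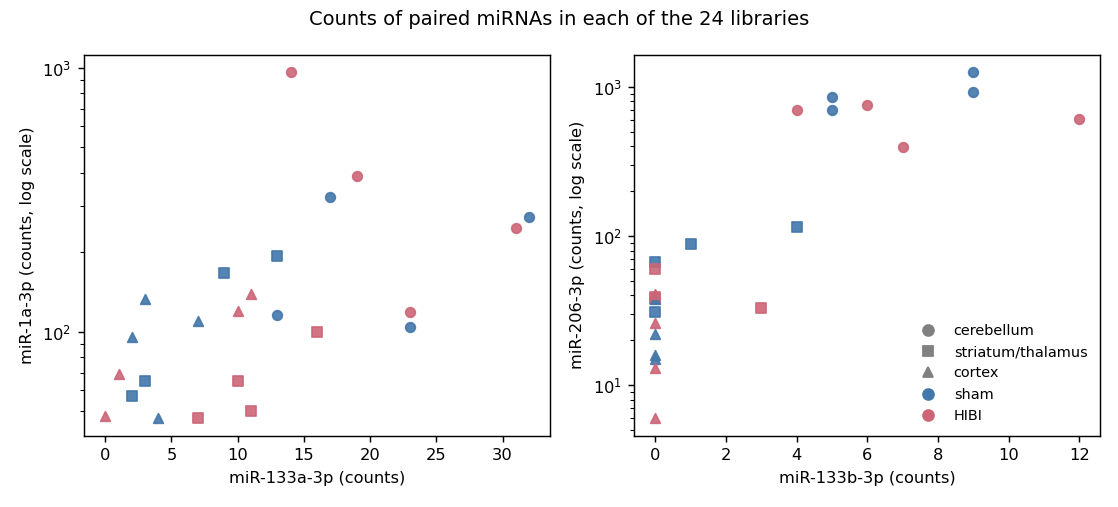
Counts in each of the 24 libraries of miR-1a-3p against miR-133a-3p (left) and miR-206-3p against miR-133b-3p (right), with linear horizontal and log vertical axes, region by symbol and group by color. The cerebellar library of HIBI pup 5 stands at the top of the left panel with 964 counts of miR-1a-3p and 14 of miR-133a-3p, and the cerebellar libraries form a separate group at the top of the right panel with 395 to 1259 counts of miR-206-3p.

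The miRNAs whose pattern was most like each member were ranked by the Pearson correlation of log2(CPM + 1) over the 24 libraries, which share pups and regions, among 433 others. For miR-206-3p these were miR-10b-5p (0.952), encoded among the Hox genes, and miR-216b-5p (0.944) and miR-216a-3p (0.942), which lie near each other on chromosome 11. Their sequences are shown with the seed in capitals, since none shares the seed of miR-206-3p.
miR-10b-5p: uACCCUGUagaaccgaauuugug
miR-216b-5p: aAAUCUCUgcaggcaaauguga
miR-216a-3p: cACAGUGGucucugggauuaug
In sham pups miR-10b-5p was lower than in the cerebellum by a log2 of -2.20 in striatum/thalamus and -3.10 in cortex, and miR-216b-5p by -4.17 and -4.47 (adjusted p at most 1.51e-05 by edgeR's quasi-likelihood test). Both fell less steeply from striatum/thalamus to cortex than miR-206-3p, at -0.90 and -0.31 against -2.13, a contrast between miRNAs that was not tested. MiR-133b-3p had miR-216b-5p (0.891), miR-216a-3p (0.887) and miR-217-5p (0.871), and miR-133a-3p had miR-216a-3p (0.849), miR-219b-5p (0.818) and miR-10b-5p (0.791). MiR-1a-3p went instead with miR-338-5p (0.846), miR-219a-2-3p (0.846) and miR-338-3p (0.841), of which miR-338 and miR-219 are known from oligodendrocytes.

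Between members, the correlation over the 24 libraries was highest for miR-206-3p with miR-133b-3p (0.886) and lowest for miR-1a-3p with miR-133a-3p (0.586). After the mean of each region and condition was subtracted, those of miR-206-3p with miR-133a-3p (0.637) and of miR-133a-3p with miR-133b-3p (0.311) were the highest, and miR-1a-3p with miR-206-3p gave 0.108. The pairs encoded side by side then gave 0.212 (miR-206-3p with miR-133b-3p) and 0.258 (miR-1a-3p with miR-133a-3p), so that the value of 0.886 rested largely on differences between groups. On this scale the closest to miR-1a-3p were miR-146b-5p (0.831), miR-98-5p (0.826) and miR-335-5p (0.813). Those of miR-206-3p were let-7c-5p (0.676), let-7b-5p (0.672) and miR-107-3p (0.661), those of miR-133a-3p let-7e-5p (0.642), miR-34c-3p (0.591) and miR-216a-3p (0.585), and those of miR-133b-3p, at low counts, miR-3473a, miR-342-5p and miR-151-5p (0.468 to 0.471).

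The other striated muscle miRNAs were scarce. Of 8 listed, 4 were in the tables and none passed the CPM minimum. MiR-499-5p, encoded in a myosin heavy chain gene, had 5, 7, 9 and 4 counts in the cerebellum of sham pups 2, 3, 6 and 8, and 5, 0, 30 and 15 in HIBI pups 1, 4, 5 and 7. MiR-1b-5p, which arises from the strand opposite a miR-1a hairpin, had 1, 3, 4 and 14 counts in these sham and 4, 2, 16 and 4 in these HIBI libraries. The library of pup 5 was thus the highest of the cerebellum for miR-1a-3p, miR-1b-5p and miR-499-5p alike. Over all libraries miR-1b-5p had 85 counts, 2.10% of those of miR-1a-3p, and whether the counting used strand is not given in the sources used here. The heart-type miR-208a-5p had 21 counts, of which 1 was in the cerebellum, and miR-499-3p had 1. Of the 5 other arms of the members' hairpins, 2 were in the tables, miR-1a-1-5p with 2 counts and miR-133a-5p with 3, so that the counts of miR-1a and miR-133a were nearly all on the 3p arm.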

How the data were processed

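The authors aligned miRNA-Seq reads (NEXTFLEX Small RNA Kit, NextSeq 550) to mature mouse miRNAs of miRBase with bowtie2 and deposited raw counts per mature miRNA, 1 table a region. The versions, the miRBase release and the rule for reads matching several miRNAs are not given in the sources used here. The same deposited tables hold the authors' own comparison (a log2 fold change, average log2 CPM, p-value and false discovery rate), which was not used. Of 1551 entries, 20 named for the castor bean (84 counts) entered neither the library sizes nor the tests.

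EdgeR 4.0.16 in R 4.3.3 served for the analysis (TMM, quasi-likelihood test). MiRNAs averaging above 10 CPM were tested, and the 4 members were kept whatever their level. Above that minimum were miR-1a-3p in all regions, miR-206-3p in the cerebellum and striatum/thalamus, miR-133a-3p in the cerebellum, and miR-133b-3p in none. HIBI was compared with sham within each region (8 libraries). Regions and the interaction were tested in 1 model of 24 libraries. P-values were adjusted by Benjamini-Hochberg over all miRNAs tested. Exact permutation tests were two-sided, on log2(CPM + 1). Alternatives used DESeq2 1.42.0 and limma 3.58.1, other scalings and CPM minimums, an edgeR exact test, a replicate block, and each pup left out. On simulated data for the cerebellum comparison, 80.9% of 188 miRNAs changed by a log2 of 1 were recovered. Recovery meant an unadjusted p under 0.05 and a fold change above 1.5 in the right direction. The simulated dispersion was set at 0.1 and not taken from these data, so this share does not give the power for the members.

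Named miRNAs were the 4 members, the entries of the lists, and for each member the 3 most correlated miRNAs on each of 2 scales. Members and lists were chosen with earlier results of these data known. The lists were other arms of the members' hairpins, other striated muscle, muscle and erythroid, erythrocyte, smooth muscle and mural, endothelial, meningeal and fibroblast, choroid plexus, and neuron.

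Libraries of different pups are separate animals, and no pair agreed within sampling noise. The 3 regions of a pup are paired by animal, and the median correlation of their deviations over 435 miRNAs was 0.16 to 0.27, above 0.1 in 5, 7 and 5 of 8 pups. Loci came from GENCODE M21 (GRCm38) and sequences from RefSeq (GRCm38.p6).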

Additional observations from a re-analysis of the deposited data

Results flagged for a closer look

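In groups of 4 libraries, a library far from the others was found in 2 of the 22 groups examined. For normally distributed values chance alone gives about 1 in 20, a rate that does not hold for counts near 0. MiR-206-3p in the sham cortex had 12.2 CPM in pup 3, against 6.67 to 6.77 CPM in the other 3 libraries. MiR-133b-3p in the striatum/thalamus of HIBI pups had 2.14 CPM in pup 1, which is 3 counts, against 0 in the other 3. The rule flags any group in which a single library is above 0, whatever its count.

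The injury effect of miR-1a-3p was lower in the forebrain than in the cerebellum by a log2 of -1.33 (SE 0.577), a difference with an unadjusted p under 0.05 that failed adjustment over 437 miRNAs (adjusted p = 0.257 by edgeR's quasi-likelihood test). In the cerebellum 2 of 4 HIBI libraries were above all sham libraries, and in the striatum/thalamus 1 of 4 was below all of them. In the cortex 0 of 4 lay above and 0 below all sham libraries, with a log2 fold change of 0.05 (SE 0.379). The cerebellar log2 fold change of 1.06 fell to 0.44 without pup 5. With each pup left out, the difference between forebrain and cerebellum ranged from -1.65 to -0.85.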

How the results depend on the processing

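Log2 fold changes of miR-206-3p between regions kept direction and call under every alternative run. With another setting, calls changed for miR-1a-3p between HIBI and sham in the cerebellum (0.94 with upper-quartile scaling, lost), miR-206-3p in the same comparison (-0.67 with that scaling, gained), and miR-133a-3p between striatum/thalamus and cerebellum of sham pups (-1.58 with no CPM minimum, lost). For miR-133b-3p the sham call between these regions was lost with library size alone (-2.19), the DESeq2 test (-2.40) and pup as a replicate block (-2.36), and the HIBI call with the DESeq2 test (-2.95). The replicate block, through pups that are paired by animal, changed no other call of the 4 miRNAs.

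With each pup left out, log2 fold changes between HIBI and sham ranged in the cerebellum from 0.44 to 1.31 for miR-1a-3p, -0.057 to 0.42 for miR-133a-3p, -0.12 to 0.45 for miR-133b-3p and -0.67 to -0.42 for miR-206-3p. They ranged in the striatum/thalamus from -0.90 to -0.29 for miR-1a-3p, 0.61 to 1.47 for miR-133a-3p, -3.40 to 1.07 for miR-133b-3p and -0.89 to -0.41 for miR-206-3p, and in the cortex from -0.23 to 0.33 for miR-1a-3p and -0.33 to 0.34 for miR-206-3p. Between striatum/thalamus and cerebellum the ranges were -1.81 to -1.30 (miR-133a-3p, sham), -3.80 to -1.85 (miR-133b-3p, sham) and -5.93 to -2.06 (miR-133b-3p, HIBI). Between cortex and cerebellum miR-1a-3p in sham ranged from -1.62 to -1.07. Between cortex and striatum/thalamus of HIBI pups the ranges were -0.24 to 0.33 for miR-1a-3p and -2.18 to -1.07 for miR-133a-3p, called without pup 7. The cause of these changes was not tested.

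With no CPM minimum, and so more miRNAs tested, calls between HIBI and sham rose from 36 to 106 in cerebellum, 12 to 54 in striatum/thalamus and 14 to 86 in cortex, and with an average above 1 CPM to 61, 21 and 41. DESeq2 called 19 in striatum/thalamus. In cerebellum the count was 61, 18, 20 and 80 without pup 1, 2, 3 or 6, and in striatum/thalamus 7, 38 and 19 without pup 3, 5 or 8. Calls between cortex and striatum/thalamus fell from 144 to 88 and 77 in sham (without pup 2 or 8) and from 164 to 98 and 99 in HIBI (without pup 4 or 7). Depth limits miR-133a-3p and miR-133b-3p, at 0 to 32 counts a library, and 4 pups a group limit every comparison.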

Other observations

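MiR-486a-5p and miR-486b-5p, found in both muscle and erythroid cells and near-identical in sequence, were called lower in the cerebellum of HIBI pups (2 of 2 listed), with log2 fold changes of -0.85 (SE 0.269) and -0.84 (SE 0.272) and adjusted p-values of 0.433 by edgeR's quasi-likelihood test. Of the 435 miRNAs tested there 8.28% were called, 18 of them lower, and near-identical sequences make these 2 not independent. MiR-486a-5p had 1079, 951, 517 and 803 CPM in sham pups 2, 3, 6 and 8, and 531, 586, 334 and 412 CPM in HIBI pups 1, 4, 5 and 7. Sham pup 6 lay within the HIBI range. The erythrocyte miRNA miR-451a had 142, 172, 220 and 520 CPM in the same sham and 129, 193, 248 and 316 CPM in the same HIBI libraries, and was not called (-0.22, SE 0.385).

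Of the other lists, 1 of 3 meningeal and fibroblast miRNAs (miR-214-3p, 1.30, SE 0.423) and 1 of 5 choroid plexus miRNAs (miR-34b-3p, 0.75, SE 0.262) were called higher in the striatum/thalamus, each with an adjusted p of 0.978. No other tested entry of the erythrocyte, smooth muscle and mural, endothelial, meningeal and fibroblast, choroid plexus or neuron lists was called in any region. Choroid plexus miR-204-5p in the cerebellum was highest in sham pup 2, at 8904 CPM against 2343 to 4225 CPM in the other 7 libraries, the library that was also highest in miR-206-3p. It was lowest in sham pup 6, at 2343 CPM, where miR-206-3p, at 395 CPM, was above all HIBI libraries.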
